A study of Glycine max with 4 samples.

Results

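The cotyledons of soybean seedlings 6 days after imbibition were compared with whole dry seeds, each represented by 1 library of polyadenylated RNA. Both came from the cultivar Williams 82, with no mutant, transgene or treatment named in the labels. Parent plants grew in a greenhouse, seeds for seedlings were sown on soil, and cotyledons were picked by hand. The dry seeds weighed 100 to 250 mg and were used whole, so they included seed coat and embryo axis, which the seedling sample lacked. The labels call that part very small, and it was not measured here. Stage and tissue therefore cannot be told apart in this comparison. Of 66210 gene models in the deposited count files, 31169 reached 1 scaled CPM in at least 1 of the 2 libraries and were compared. Scaled CPM is the read count per 1000000 library counts, with library totals corrected by TMM factors (trimmed mean of M-values) computed over the 4 libraries of the series. The remaining libraries were cotyledons of green mid-maturation embryos (stage B1) and of yellow late-maturation embryos (stage AA1), and they serve below to follow the same gene models back through seed development.

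A mature soybean seed keeps most of its reserves in the cotyledons. The dry seed also carries messenger RNA that was made before drying and stored. After imbibition the cotyledons are raised above the soil, turn green and photosynthesise while their protein and oil reserves are broken down to feed the growing seedling. The comparison places the stored transcript pool of the dry seed beside the pool of a working seedling cotyledon.

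The libraries held 28190429 counts for seedling cotyledons and 21512278 for dry seed. B1 and AA1 held 16120894 and 38011608. None of the gene model identifiers matched the gene table at hand, so the files do not pair them with gene names, no product or pathway can be given, and the labelled tissues could not be checked against marker genes. Gene models are described by their levels. Levels are counts of reads that were not divided by transcript length, so the ratios compare each gene model with itself between libraries. Ranks, level classes and shares of counts set different gene models side by side, and these depend in part on transcript length. A lower level in bulk RNA can come from fewer cells that hold a transcript or from less of it per cell, and these cannot be told apart. With 1 library on each side there is no replicate check. No test across samples is possible, and all intervals are 95% intervals that cover counting error only.

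Transcript levels of seedling cotyledons and dry seed stood far apart. Counting a gene model as different where the ratio was at least 4-fold, with counts under 3 set to 3, 9813 gene models were higher in seedlings, which is 31.5% of those compared, and 4882 were lower, which is 15.7%. Together they were 47.1%, and 16474 gene models lay less than 4-fold apart. The higher gene models, called the new pool below, took 52.8% of the seedling counts (exact interval 52.77% to 52.80%) and 1.69% of the dry-seed counts. The lower gene models, called the stored pool, took 6.07% of the seedling counts and 60.6% of the dry-seed counts (exact interval 60.57% to 60.61%). Gene models less than 4-fold apart held 40.6% of the seedling counts and 37.5% of the dry-seed counts. These memberships and shares follow from the ratio used to choose the pools and are a description.

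**Figure D1:**
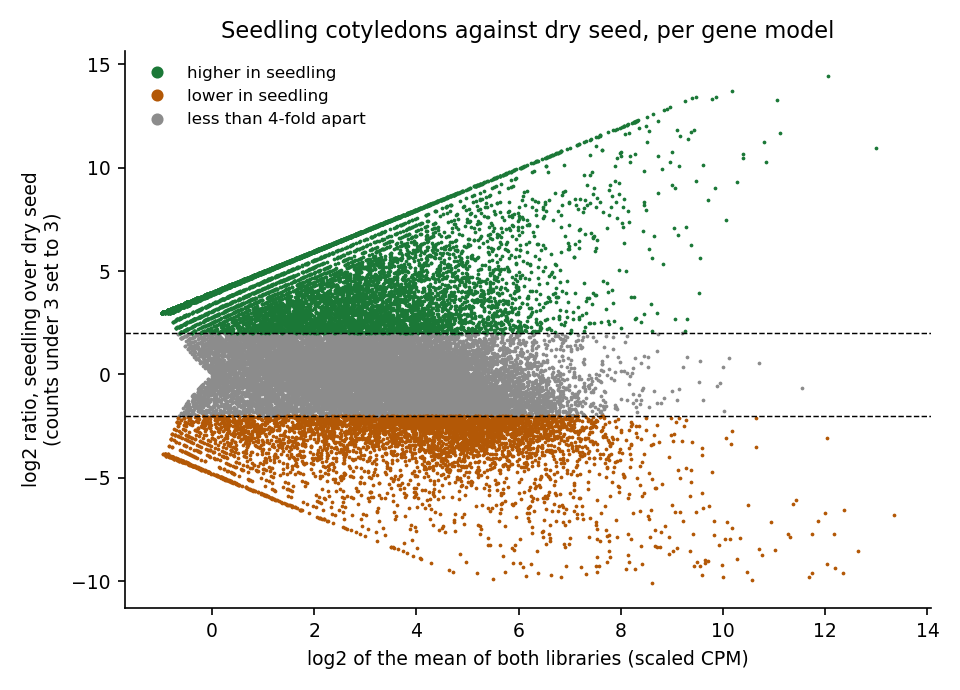
Each point is 1 of the 31169 gene models, with the log2 ratio of seedling cotyledons over dry seed on the vertical axis and the log2 of the mean scaled CPM of both libraries on the horizontal axis; dashed lines mark 4-fold. The 9813 points above the upper line reach larger ratios than the 4882 below the lower line, and the straight outer edges are gene models whose count in 1 library was at or under the floor of 3.

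The ratios in the new pool were larger. Its median ratio was 14.8-fold, with quartiles of 8.04 and 36.3, while the median in the stored pool was 7.55-fold, with quartiles of 5.19 and 15.2. In the new pool 3406 gene models were 4 to 10-fold higher, 5366 were 10 to 100-fold higher and 1041 were at least 100-fold higher. The last class held 28.0% of the seedling counts and 0.035% of the dry-seed counts. In the stored pool 3046 gene models were 4 to 10-fold lower, 1614 were 10 to 100-fold lower and 222 were at least 100-fold lower. Those 222 held 0.14% of the seedling counts and 23.5% of the dry-seed counts. The 4-fold line did not fall in a gap: 481 gene models of the new pool had ratios of 4 to 4.5-fold and 532 outside it had 3.5 to 4-fold. For the stored pool these numbers were 575 and 670. The members nearest the line had 11.9 scaled CPM in seedlings against 2.96 in dry seed just inside the new pool, and 1.72 against 0.429 just outside it. On the other side they had 1.11 in seedlings against 4.42 in dry seed just inside the stored pool, and 12.5 against 49.8 just outside it. At the counting error of these libraries, the interval of the ratio lay wholly beyond 4-fold for 8164 members of the new pool and 3899 of the stored pool. It reached 1 for 0 members of either, but the level filter and the 4-fold rule left little room for that. The intervals use the same counts that chose the members, so they are not separate support for the calls.

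The balance of the pools depended on the scaling and on the filter. With TMM the median log2 ratio of seedlings over dry seed was 0.32 across gene models, and the new pool made up 66.8% of the gene models at least 4-fold apart. Scaling by total counts moved that median to 0.90 and gave 12108 higher and 3422 lower gene models, a share of 78.0% higher. Requiring 10 scaled CPM in either library left 4238 higher and 3450 lower, a share of 55.1% higher, with a median of -0.37.

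Abundant transcripts were seldom shared. Of the 10 gene models with the highest scaled CPM in seedling cotyledons, 10 belonged to the new pool, and of the 10 highest in dry seed, 10 belonged to the stored pool. Among the 1000 highest in seedlings, 654 were in the new pool, 316 were less than 4-fold apart and 30 were in the stored pool. Among the 1000 highest in dry seed, 711 were in the stored pool, 285 were less than 4-fold apart and 4 were in the new pool. The 2 lists of 1000 had 172 gene models in common. By level in seedlings, 36 of 40 gene models at 1000 scaled CPM or more were in the new pool, as were 140 of 171 at 300 to 1000 and 1283 of 3332 at 30 to 100. By level in dry seed, 72 of 78 gene models at 1000 or more were in the stored pool, as were 174 of 211 at 300 to 1000 and 1502 of 4176 at 30 to 100. A gene model chosen for a high level in 1 library is favoured to be higher there, so these shares are not evidence beyond the ratios themselves.

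**Figure D2:**
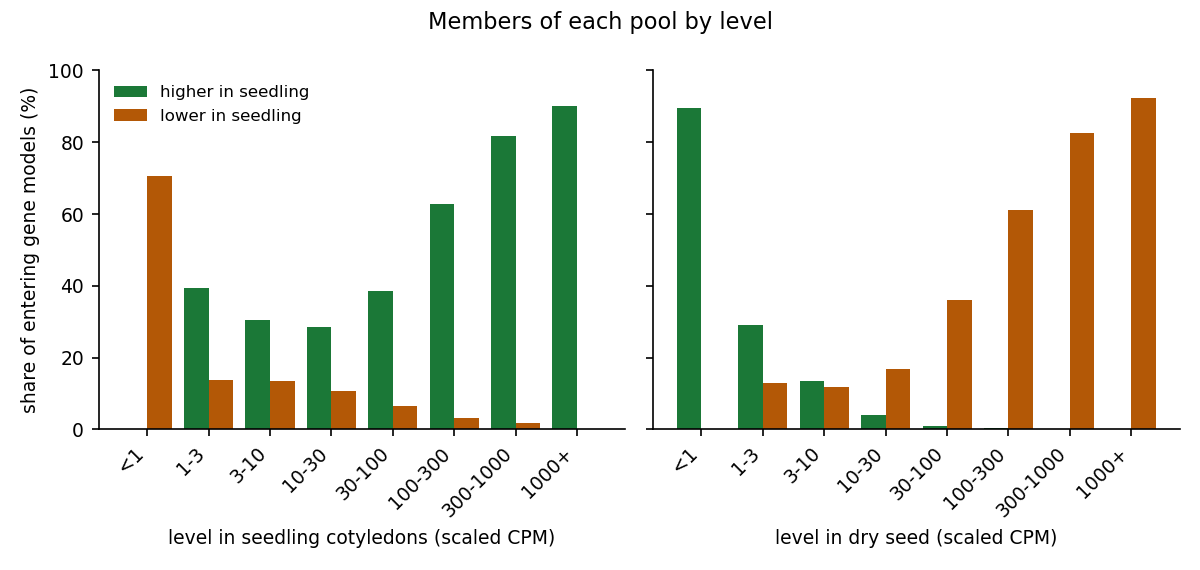
Bars give the share of gene models in each level class that belonged to the new pool (higher in seedling) or the stored pool (lower in seedling), with classes formed by scaled CPM in seedling cotyledons on the left and in dry seed on the right. At 1000 scaled CPM or more the new pool makes up 90% of the class in the left panel and the stored pool 92.3% in the right panel.

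A small part of the new pool held much of its seedling counts. It took 241 of its 9813 members to reach 50% of them, and its 10 and 100 most abundant members gave 14.5% and 36.9%. Gene models less than 4-fold apart needed 1898 of 16474 to reach 50% of their seedling counts. Their 100 most abundant gave 13.2%. New-pool members were picked for higher levels in seedlings, so this contrast is a description. The median member of the new pool stood at 7.64 scaled CPM in seedlings and 0.30 in dry seed. In seedlings 537 members were at 100 scaled CPM or more and 4238 at 10 or more. Dry seed already held 10 scaled CPM or more of 289 members, and at least 100 of 4 members. The 2 members most abundant in seedlings carried these patterns to an extreme. Glyma08g21410, on chromosome 8 by its identifier, had 694212 counts in seedlings and 190 in dry seed, or 16326 against 8.16 scaled CPM. It had 1.17 scaled CPM in B1 and 16.1 in AA1, so it was low in all 3 seed libraries. Its ratio of seedling to dry seed was 2002-fold (interval 1737 to 2320), and it alone made up 2.46% of all seedling counts. Glyma07g01730, on chromosome 7, had 362310 counts in seedlings and 9 in dry seed, or 8521 against 0.39 scaled CPM, and made up 1.29% of the seedling counts. In B1 and AA1 it stood at 2.24 and 0.075 scaled CPM, from 21 and 3 counts. Among the 10 most abundant members, levels were 2298 to 16326 scaled CPM in seedlings and 0.17 to 8.16 in dry seed. In B1 the same 10 had levels of 0.32 to 350, a wider span than their span in seedlings, so some were well detected in the green embryo while 1 was at its floor of 3 counts.

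Many members of the new pool were not seen in dry seed. A count of 0 there was found for 1934 members, or 19.7%, which allows a level of up to 0.129 scaled CPM each (3 counts). They are all of the compared gene models with 0 dry-seed counts, as the rules place each of them here. Their median level in seedlings was 3.25 scaled CPM, 403 reached 10 and 44 reached 100, and together they gave 4.10% of the seedling counts. Of these 1934, 1159 had counts in B1 and 1244 in AA1. Over all 31169 compared gene models, 1846 had 0 counts in B1 and 972 in AA1. Earlier detection was thus less frequent in this set than over all. At least 1 scaled CPM was reached by 475 in B1 and 35 in AA1, against 24518 and 24239 over all. For 409 members all 3 seed libraries had 0 counts.

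The stored pool has fewer members than the new pool, which limits a comparison of how concentrated they are. It took 117 of its 4882 members to reach 50% of its dry-seed counts, against 241 of 9813 for the new pool in seedlings. Its 10 and 100 most abundant members gave 18.6% and 48.1% of its dry-seed counts, more than in the new pool. Its single most abundant member gave less, at 3.69% against 4.67%. The median member stood at 3.20 scaled CPM in seedlings and 30.4 in dry seed. In dry seed 951 members were at 100 scaled CPM or more. The 2 members most abundant in dry seed were abundant throughout seed development. Glyma09g31740, on chromosome 9, had 7990 counts in seedlings and 481499 in dry seed, or 188 against 20668 scaled CPM. Its levels in B1 and AA1 were 9898 and 32172 scaled CPM, and its level was 110-fold lower in seedlings than in dry seed (interval 108 to 112). Glyma15g03030, on chromosome 15, had 1454 counts in seedlings and 297723 in dry seed, or 34.2 against 12780 scaled CPM, and was 374-fold lower in seedlings (355 to 394). It differed from the other member in having its highest level early, at 52230 scaled CPM in B1 and 17876 in AA1. Among the 10 most abundant members, levels were 13.1 to 893 scaled CPM in seedlings and 7344 to 20668 in dry seed, and their ratios ran from 8.38-fold to 790-fold.

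Few transcripts of the stored pool were undetected in the seedling. A count of 0 in seedlings was found for 61 of the 4882 members, or 1.25%, which allows up to 0.0706 scaled CPM each. This share is not on the same footing as the 19.7% of the new pool. The floor was 0.129 scaled CPM in dry seed, and the median level on the high side was 30.4 here against 7.64 there. The 61 are all of the compared gene models with 0 seedling counts, as the rules place each of them here. These were low in dry seed too, with a median of 1.89 scaled CPM and a highest level of 22.8. In seedlings 3394 members had at least 1 scaled CPM, 1152 at least 10, 242 at least 30 and 22 at least 100. The pool's seedling counts, 6.07% of that library, were less concentrated than its dry-seed counts. It took 459 members to reach 50% of them, against 117 in dry seed. Choosing members for higher levels in dry seed favours this difference. The new pool likewise needed 413 members in dry seed against 241 in seedlings. Whether these seedling transcripts were kept from the seed or made after imbibition was not tested.

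Both pools were then followed back to B1 and AA1, whose counts played no part in choosing them apart from the shared scaling. Median levels of the new pool were 1.92 scaled CPM at B1, 0.85 at AA1, 0.30 in the dry seed and 7.64 in the seedling. The stored pool had medians of 6.09, 15.4, 30.4 and 3.20 in the same order. The median of the new pool was thus lower at each later seed stage and that of the stored pool was higher. The dry-seed level was used to choose the members, which favours the step from AA1 to dry seed in both pools. Only the step from B1 to AA1 is free of that choice, and its size depends on the scaling, as given below. Gene models less than 4-fold apart had nearly level medians, at 6.73, 8.74, 9.06 and 8.33 scaled CPM. By share of counts, the new pool took 7.94% at B1, 3.87% at AA1, 1.69% in the dry seed and 52.8% in the seedling. The stored pool held 72.4%, 59.9%, 60.6% and 6.07% in the same order. Its share was thus highest in B1 although its median was highest in dry seed.

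**Figure D3:**
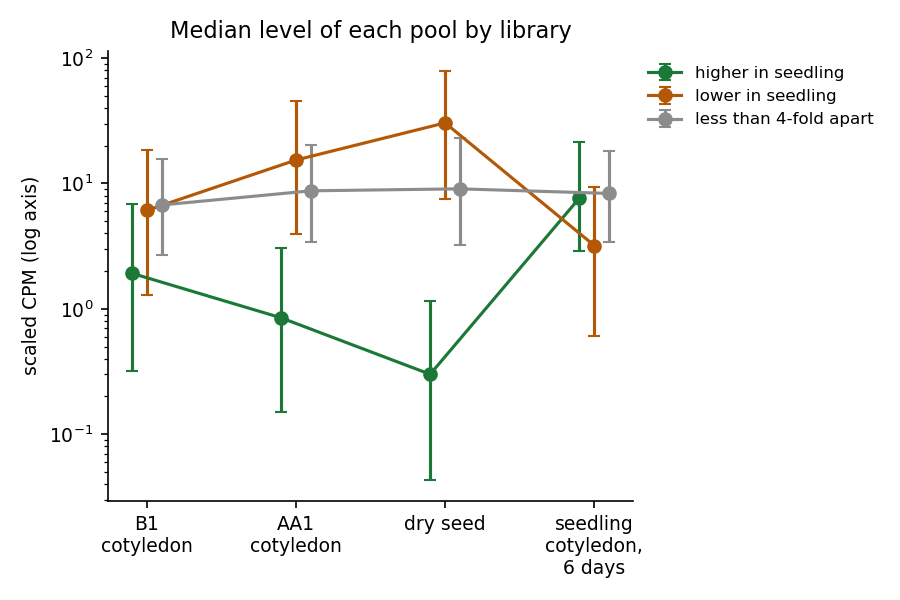
Points are the median scaled CPM over the members of each pool in each library, on a log axis, and bars run from the lower to the upper quartile across gene models. The stored pool (lower in seedling) goes through 6.09, 15.4 and 30.4 scaled CPM in B1, AA1 and dry seed and is at 3.20 in seedlings, while the new pool (higher in seedling) goes through 1.92, 0.85 and 0.30 and is at 7.64. The dry-seed and seedling levels were used to choose the pools.

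**Figure D4:**
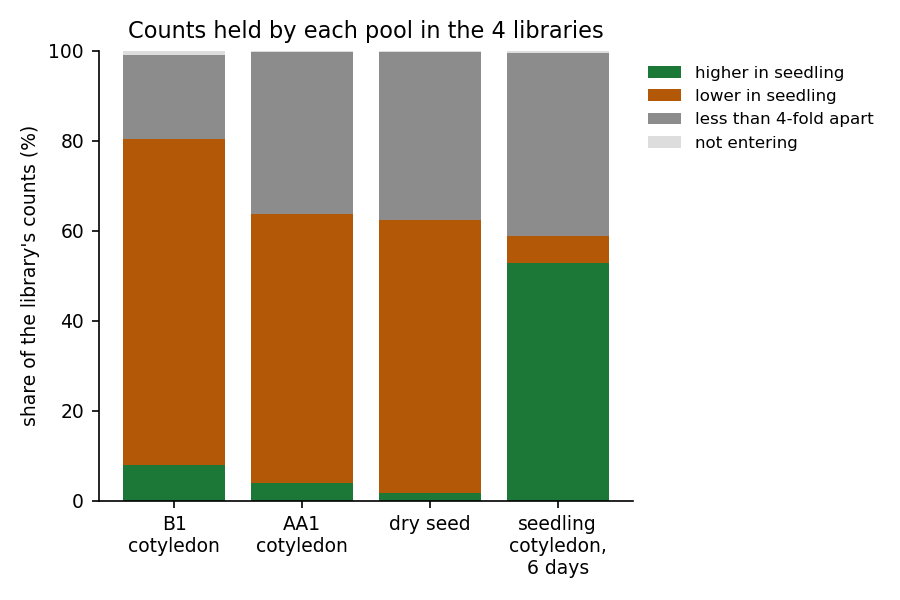
Stacked bars give the percentage of each library's counts held by the new pool (higher in seedling), the stored pool (lower in seedling), gene models less than 4-fold apart and gene models that did not enter. The stored pool takes 59.9% to 72.4% of the 3 seed libraries and 6.07% of the seedling library.

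The stored pool had several histories. Each member's B1 and AA1 level was set against its own dry-seed level, again at 4-fold. The dry-seed level had itself been used to choose the members, which favours calls of low, so the same call over all 31169 compared gene models is given beside each share. In B1, 2840 members (58.2%) were low, against 18.7% over all. The most frequent history, with 2027 members (41.5%, against 15% over all), was low in B1 and within 4-fold of the dry-seed level by AA1, and its medians were 5.02 (B1), 21.7 (AA1), 46.7 (dry seed) and 5.43 (seedling) scaled CPM. These members held 29.3% of the dry-seed counts against 1.73% of B1. A further 1642 members (33.6%, against 57.2% over all) were within 4-fold of the dry-seed level at both earlier stages, and held 20.7% of the dry-seed counts. At least 4-fold below the dry-seed level in both B1 and AA1 were 800 members (16.4%, against 3.54% over all), with 5.72% of the dry-seed counts. A small set of 189 members (3.87%, against 19% over all) had stood at least 4-fold above the dry-seed level in B1. Its share of counts was 62.4% at B1, 13.5% at AA1, 4.47% in the dry seed and 0.058% in the seedling, with medians of 188, 39.4, 11.2 and 0.33 scaled CPM. It accounts for most of the large B1 share of the stored pool. Its members were picked for a B1 level above that of dry seed, so the lower dry-seed median follows from that choice. The AA1 median lay between the 2.

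The new pool divided by its level in the green embryo. Against the seedling level of each member, which had also been used to choose it, 5000 members (51.0%) were at least 4-fold lower in B1, 4532 (46.2%) were within 4-fold and 281 (2.86%) were at least 4-fold higher. Over all compared gene models the same calls gave 23%, 68.3% and 8.74%. The members low in B1 carried most of the pool, with 42.0% of the seedling counts, while those within 4-fold carried 10.4%. In AA1 6937 members (70.7%) were at least 4-fold below the seedling level and 2872 (29.3%) within 4-fold, against 24.9% and 65.3% over all. The largest history was that of 4181 members low in all 3 seed libraries (42.6%, against 13.4% over all). Low in dry seed is already the rule of the pool, and for B1 and AA1 alone the share over all was 14.5%. Next came 2638 members (26.9%, against 10% over all) near the seedling level in B1 and low in AA1. Their medians were 4.17 (B1), 0.47 (AA1), 0.21 (dry seed) and 5.81 (seedling) scaled CPM. Another 1892 members (19.3%, against 53.1% over all) stayed near the seedling level through AA1, with medians of 5.45, 2.90, 0.77 and 5.96. The reverse order, low in B1 and near the seedling level in AA1, was found for 818 members (8.34%), close to the 8.19% over all. The 281 members above their seedling level in B1 took 3.63% of counts at B1, 0.12% at AA1, 0.027% in the dry seed and 0.41% in the seedling. In B1 a count of 3 corresponds to 0.32 scaled CPM, so a member at less than 4 times that level in seedlings could not be called low in B1. Among the 4238 members at 10 scaled CPM or more in seedlings, 60.7% were low in B1 and 51.9% low in all 3 seed libraries.

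The change between the 2 maturation stages was compared with membership in the pools, since it shares no library with the seedling and dry-seed ratio. Over all 29154 gene models that reached 1 scaled CPM in AA1 or B1, the 4-fold rule called 13.2% higher in AA1 and 16.6% lower. The floor is lower in AA1 than in B1, at 0.0749 against 0.32 scaled CPM, so a lower call in AA1 is open to lower levels than a higher call. Of the stored pool, 4383 of 4882 members entered, and 1342 of them (30.6%) were higher in AA1 while 163 (3.72%) were lower. Of the new pool, 6696 of 9813 members entered, and 613 of them (9.15%) were higher in AA1 while 2604 (38.9%) were lower. Gene models less than 4-fold apart between seedling and dry seed showed 10.8% and 4.90%. With TMM, the median ratio of AA1 over B1 was 1.34 on the log2 scale in the stored pool, -1.37 in the new pool and 0.19 over all gene models. With total counts these medians were 2.37, -0.16 and 1.15. The new pool's own fall was thus small with total counts. Under both scalings its median lay below that over all gene models, and that of the stored pool lay above. The 2604 shared gene models are 26.5% of the new pool and 53.9% of the 4828 that were lower in AA1. The 1342 are 27.5% of the stored pool and 35.0% of the 3836 that were higher in AA1.

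With TMM scaling, the maturation change differed between fold classes of the later change. In the new pool, the share at least 4-fold lower in AA1 was 23.3% of members 4 to 10-fold higher in seedlings, 45.9% of those 10 to 100-fold higher and 68.5% of those at least 100-fold higher. In the stored pool, the share at least 4-fold higher in AA1 was 24.6%, 41.5% and 45.5% over the same fold classes. The stored members lost at least 100-fold were mixed, since 11.4% of them were lower in AA1, against 1.78% of those 4 to 10-fold lower in seedlings. Levels differed between these classes: the median in the library where the pool is high was 6.35, 6.17 and 38.3 scaled CPM over the new pool's classes and 31.1, 21.4 and 178 over those of the stored pool. The part of level in these shares was not tested. Under total counts the 3 classes of the new pool gave 9.58%, 27.5% and 55.4% lower in AA1, in the same order as with TMM. Those of the stored pool gave 60.1%, 62.0% and 59.0% higher in AA1, so the increase over fold classes in the stored pool was not seen with that scaling. For the whole pools total counts gave 22.9% of the new pool lower in AA1 and 60.6% of the stored pool higher in AA1, against 9.75% and 29.4% over all gene models. The whole pools stood above the background in these directions under TMM and total counts, and also with DESeq2 size factors and upper quartile factors. The new-pool class of 4 to 10-fold did not under total counts.

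**Figure D5:**
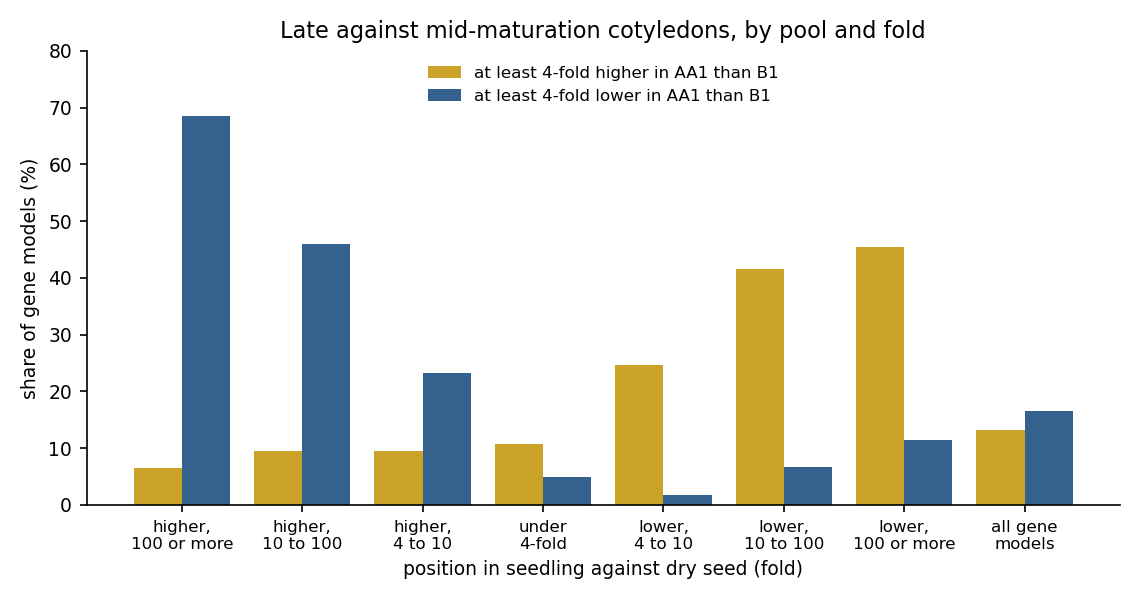
Bars give the share of gene models at least 4-fold higher or lower in AA1 than in B1, for classes of the new pool (higher in seedling) and stored pool (lower in seedling) by fold, for gene models under 4-fold and for all gene models. The share lower in AA1 is 68.5% in the class at least 100-fold higher in seedlings and 1.78% in the class 4 to 10-fold lower, against 16.6% over all.

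Members of a pool lay beside each other along the chromosomes more often than the pools' overall share. Chromosome and order were read from the identifiers. Among neighbouring gene models that both entered, the neighbour of a new-pool member was also in the new pool in 37.8% of cases, against 29.2% over all neighbours. For the stored pool the values were 23.5% and 16.5%. Of the 10566 neighbour places of new-pool members, 12.9% held a stored-pool member, below the 16.5% over all neighbours. Unbroken runs of 2 or more new-pool members numbered 1567 and held 3565 members (36.4% of those on chromosomes), and 19 runs had at least 5. The longest had 9 members, on chromosome 12, at 3.62 to 77.3 scaled CPM in seedlings and 0 to 6.65 in dry seed. In the stored pool 587 runs held 1289 members (26.5%), and the longest had 7, on chromosome 3, at 0.80 to 36.6 scaled CPM in seedlings and 11.4 to 408 in dry seed. No number of runs expected at the pools' shares is given, so the run counts are a description. How reads that fit several near-identical copies were counted is not stated, so values of single neighbouring copies are uncertain.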

How the data were processed

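The authors deposited, per the file headers, the number of mapped reads per gene model, as raw counts without normalization. Per the labels' protocols, DNase-treated RNA went through 2 rounds of poly-A selection, and 100 ng entered random-primed cDNA synthesis after fragmentation. A size of about 200 bp was cut from a gel, PCR ran for 15 cycles, and single reads of 76 bp were taken on a Genome Analyzer IIx. Strand was not kept and no molecular identifiers are named. The submitters' processing notes name Bowtie. Its version, the build, the annotation and the handling of reads that map to several places were not given in the sources used here, so counts of near-identical copies are uncertain.

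The TMM scaling of edgeR 4.0.16 (R 4.3.3) gave factors of 0.581 (B1), 1.05 (AA1), 1.08 (dry seed) and 1.51 (seedling). A gene model entered if either library reached 1 scaled CPM, ratios used a floor of 3 counts, and 4-fold was a rule of size with no test. The floor is 0.32, 0.0749, 0.129 and 0.0706 scaled CPM in the same order. Ratios of single gene models use unfloored counts with exact binomial intervals, and shares have Clopper-Pearson intervals (SciPy 1.17.1). Of 66210 identifiers, 0 matched the 59048 genes of the RefSeq table of assembly Glycine_max_v4.0, ignoring case, so gene lists were not run. Named gene models are the 2 with the highest scaled CPM in the library where each pool is high, so their levels and ratios are extremes. Members, lists and rules were chosen with earlier results of these data known. The calling rule was tried on simulated counts with planted changes and counting error only. That trial cannot speak to variation between plants or preparations. Alternatives tried were scalings (DESeq2 1.42.0 size factors, total counts, upper quartile, TMM from 2 libraries), filters, floors, folds, the interval rule and thinning.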

Additional observations from a re-analysis of the deposited data

How the results depend on the processing

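With 1 library for each stage, no replicate could be left out. No paired analysis was possible because each group holds 1 library and no test across samples was made. Depth limits low levels most in B1. Variation between plants and preparations is measured by no setting. The number of gene models higher in seedlings was 9813 and became 5984 with a filter of 5 scaled CPM, 4238 with 10 scaled CPM, 5952 with a pseudocount of 1 scaled CPM and 6407 at 10-fold. Of lower ones there were 4882, then 9166 at 2-fold and 1836 at 10-fold. Other settings kept both numbers within 1.5 times. The share higher among those 4-fold apart was 66.8%. It was 78.0% with total counts, 63.2% with DESeq2 size factors, 60.8% with the upper quartile, 60.4% and 55.1% with the filters of 5 and 10, 63.7% with a floor of 10 counts, 63.5% with the pseudocount, 58.5% at 2-fold, 77.7% at 10-fold and 67.7% by the interval rule. The median log2 ratio was 0.32 and stood at 0.90, 0.15 and 0.038 with total counts, DESeq2 and the upper quartile and at 0.26 with the pseudocount. It turned to -0.062 and -0.37 with the filters of 5 and 10, which by construction drop gene models with low levels in both libraries.

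The new pool's share of seedling counts was 52.8%. It was 57.2%, 51.3% and 50.6% under total counts, DESeq2 and the upper quartile, 51.3%, 49.4% and 52.9% with filters of 5, 10 and none, 52.5% with the floor of 10, 50.4% with the pseudocount, 61.6% and 42.8% at 2 and 10-fold, 50.7% by the interval rule and 52.7% after thinning to the B1 depth. For the stored pool's share of dry-seed counts, 60.59% in the report's setting, the values were 51.9%, 62.7% and 64.2% under the 3 scalings, 60.3%, 59.96% and 60.64% with the 3 filters, 58.9% with the pseudocount, 77.5% and 40.1% at 2 and 10-fold, 58.2% by intervals and 60.53% after thinning. In the shares that follow, the 2 and 10-fold settings changed the fold of the B1, AA1 and seed-library calls along with that of the pools. Those values are thus shares called at 2 or 10-fold, and no share over all gene models is given at those folds. The share of stored members low in B1 was 58.2%, and 78.0%, 54.4% and 49.9% under the scalings, 60.5%, 61.7% and 49.4% with the filters, 59.8% and 49.6% with floors of 1 and 10, 70.2% and 34.4% at 2 and 10-fold and 62.4% by intervals. Among members at 10 scaled CPM or more in dry seed it was 61.7%. New-pool members low in all seed libraries made up 42.6%. Low in dry seed is the rule of the pool, so the 13.4% over all compared gene models is these same members. For B1 and AA1 alone the share over all was 14.5%. The new-pool share was 59.1%, 41.1% and 38.2% under the scalings, 48.4%, 51.9% and 37.2% with the filters and 44.7% and 35.8% with the floors. It was 45.5% with the pseudocount, 55.4% and 29.2% at 2 and 10-fold and 48.7% by intervals. The comparison with AA1 over B1 and the 10 scaled CPM subsets were added after the data were seen. The stored share higher in AA1 was 30.6%, and 60.6%, 24.7% and 23.9% under the scalings, against 29.4%, 11.0% and 10.9% over all gene models. It was 26.3% with the floor of 10, 26.2% with the pseudocount, 52.3% and 16.6% at 2 and 10-fold and 33.2% by intervals. The new-pool share lower in AA1 was 38.9%, and 22.9%, 43.4% and 43.7% under the scalings, against 9.75%, 18.4% and 18.4% over all gene models. It was 33.5%, 31.8% and 40.4% with the filters, 37.2% with the floor of 10, 24.3% with the pseudocount, 48.0% and 30.1% at 2 and 10-fold and 42.0% by intervals. The cause of these shifts was not tested. TMM factors from the seedling and dry-seed libraries alone gave 9813 higher and 4881 lower.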

Other observations

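Gene models whose identifiers carry a scaffold in place of a chromosome were few, but a larger part of those that entered belonged to the stored pool. Of 429 such gene models 81 entered, and 26 of these (32.1%) were at least 4-fold lower in seedlings, while 24 (29.6%) were higher. How reads that fit several places were counted is not stated, so counts of scaffold gene models that resemble other copies are uncertain. On the 20 chromosomes the lower share ran from 14.6% to 16.6% and the higher share from 29.2% to 35.0%, its highest value on chromosome 12 followed by 34.7% on chromosome 18.

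Position along the chromosome went with whether a gene model entered while the pools' shares were close. With the gene models of each chromosome split in 10 parts by identifier order, 59.0% of those in the 2 outer parts entered, against 39.4% of those in the 2 middle parts. Of the entering ones, 31.0% in the outer and 30.3% in the middle parts were in the new pool. The stored pool made up 15.9% of the outer and 16.0% of the middle parts.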
